A study of Homo sapiens with 8 samples.

Results

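Panc-1 cells depleted of *PHF13* and then exposed to TGFβ were compared with control cells that had neither treatment. The comparison describes the net state after both: genes back at the control level, genes still changed as by TGFβ, and genes moved further than by either treatment. It took the 4 libraries of siPHF13 + TGFβ and siNC out of the 8 sequenced, and all 13307 genes of the table. Panc-1 is an established line from a carcinoma of the human pancreatic duct. Its cells received a non-targeting control siRNA (siNC) or siRNAs that target *PHF13* (siPHF13), and RNA was taken from untreated cells and from cells kept for 48 h in 10 ng/ml TGFβ (siNC + TGFβ and siPHF13 + TGFβ), with 2 mRNA libraries per condition. Depletion was transient and in 1 cell line. The labels do not say whether duplicates came from separate cultures, so that p-values measure only the spread between these libraries, which may be technical.

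Values are normalized counts, that is reads per gene divided by a size factor of the library. Between 39196214 and 46700806 reads per library lay on genes. All 8 marker genes of ductal carcinoma cells were in the table, with sums of 199333 to 209791 normalized counts in siNC and 145749 to 156190 in siPHF13 + TGFβ. The 6 markers of acinar and the 5 of endocrine pancreas were not in it, and of the 6 immune, 5 endothelial and 5 fibroblast markers it held 1 each, *CD14*, *KDR* and *PDGFRB*. The *CD14* level was 74.8 to 78.7 in siNC and 25.9 to 52.9 in siPHF13 + TGFβ. The part of these markers in the results was not tested.

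TGFβ is a secreted cytokine that binds a pair of receptor kinases, which phosphorylate SMAD proteins and send them to the nucleus to regulate genes together with other factors. In carcinoma cells it drives epithelial-mesenchymal transition (EMT), in which cells lose junction proteins such as E-cadherin and gain matrix, proteases and motility. PHF13 is a PHD finger protein that reads a histone mark of active promoters. In bulk RNA, fewer cells expressing a gene and less RNA per cell cannot be told apart.

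*PHF13* itself (chromosome 1, 6673791 to 6684090, plus strand, GRCh37) was read first. It stood at 1804 and 1662 normalized counts in the siNC libraries, at 524 and 558 in siPHF13, at 1586 and 1709 in siNC + TGFβ and at 513 and 529 in siPHF13 + TGFβ. Both depleted conditions lay below both siNC conditions, with no overlap. The net change was -1.73 on the log2 scale (SE 0.09, limma, adjusted p = 6.82e-09), which left 30.1% of the siNC mean.

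Across all genes, 1298 were higher and 1514 lower in siPHF13 + TGFβ than in siNC, or 9.75% and 11.4% of those tested (limma on log2(normalized count + 1), with a log2 fold change past 0.58 in either direction and an adjusted p below 0.05, here "called"). With no such bound on the fold, 6789 had an adjusted p below 0.05, and in 75.6% of genes the siNC and siPHF13 + TGFβ libraries did not overlap. Depletion without TGFβ called 1058 genes higher and 1390 lower (7.95% and 10.4%, 18.4% in all), and TGFβ in siNC cells 435 and 202 (3.27% and 1.52%, 4.79% in all). These 3 comparisons share the siNC libraries. The called net change nearest to the bound was that of *RUNX1* at 0.583, and the nearest outside was that of *BCAS3* at 0.578.

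Most of the largest net rises were of genes that depletion alone called and TGFβ alone did not, with *IGF2*, *SEMA7A*, *TTC9B* and *MCAM* called in both. *CHRNB2*, a subunit of neuronal nicotinic acetylcholine receptors, had 17.1 and 16.2 normalized counts in siNC and 392 and 351 in siPHF13 + TGFβ, and *CLDN6*, a tight junction claudin of embryonic epithelia, had 7.59 and 19.8 against 273 and 287. The net log2 fold changes were 4.40 (SE 0.25, adjusted p = 1.23e-08) and 4.39 (SE 0.36, adjusted p = 3.62e-07). In siPHF13 without TGFβ *CHRNB2* was already at 344 and 403 and *CLDN6* at 159 and 204, so that neither set of libraries with depletion overlapped a set without it. Next came the hair keratin gene *KRT75* at 3.84, *SEMA7A* at 3.50, the peptidylarginine deiminase *PADI1* at 3.44, the collagen gene *COL6A3* at 3.43, *IGF2* at 3.36, *TTC9B* at 3.30, *KRT81* at 3.23, the neuropeptide precursor *VGF* at 3.17 and *MCAM* at 3.14. Reads of *KRT81* may be shared with its close relative *KRT86*, and how they were divided was not tested.

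Among the largest net falls were immune genes. *GBP4*, an interferon-induced GTPase, fell from 1325 and 1541 normalized counts in siNC to 254 and 179, a change of -2.74 (SE 0.16, adjusted p = 1.39e-08). *CCL5*, a chemokine that attracts T cells, went from 1120.1 and 1305 to 271 and 235, a change of -2.26 (SE 0.14, adjusted p = 2.03e-08). For both genes all siPHF13 + TGFβ values lay below all siNC values. The others in order were the tryptase *TPSG1* (-3.16), the nephrin gene *NPHS1* (-2.70), the tetraspanin *TSPAN18* (-2.63), *ADAM32* (-2.58), the interferon-induced *SAMD9L* (-2.54) and *USP18* (-2.49), the Notch ligand *DLL1* (-2.45), the T-cell costimulatory receptor *TNFRSF9* (-2.38), the lysosomal protease *CTSS* (-2.35) and *CD69* (-2.33).

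The genes called with TGFβ in siNC cells were next sorted by their net change. Of the 435 raised by TGFβ, 242 (55.6%) were still called higher than siNC in siPHF13 + TGFβ, 79 (18.2%) were back at the siNC level, 11 were called lower and 103 were undecided. Of the 202 lowered, 79 (39.1%) were still called lower, 42 (20.8%) were back, 15 were called higher and 66 were undecided. A gene counted as back when the 95% interval of its net change lay within 0.58 on either side of 0, which 50.4% of all genes met, and as undecided when it met neither rule. The median of the raised genes was 0.93 with TGFβ in siNC cells, 0.74 in the net comparison and 0.17 with depletion alone. For the lowered genes these medians were -0.84, -0.41 and -0.16. Both comparisons use the same siNC libraries. When TGFβ genes were called against 1 siNC library and the net change was measured against the other, 47.3% and 50.3% of the raised genes and 35.6% and 30.4% of the lowered genes were still changed.

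**Figure D1:**
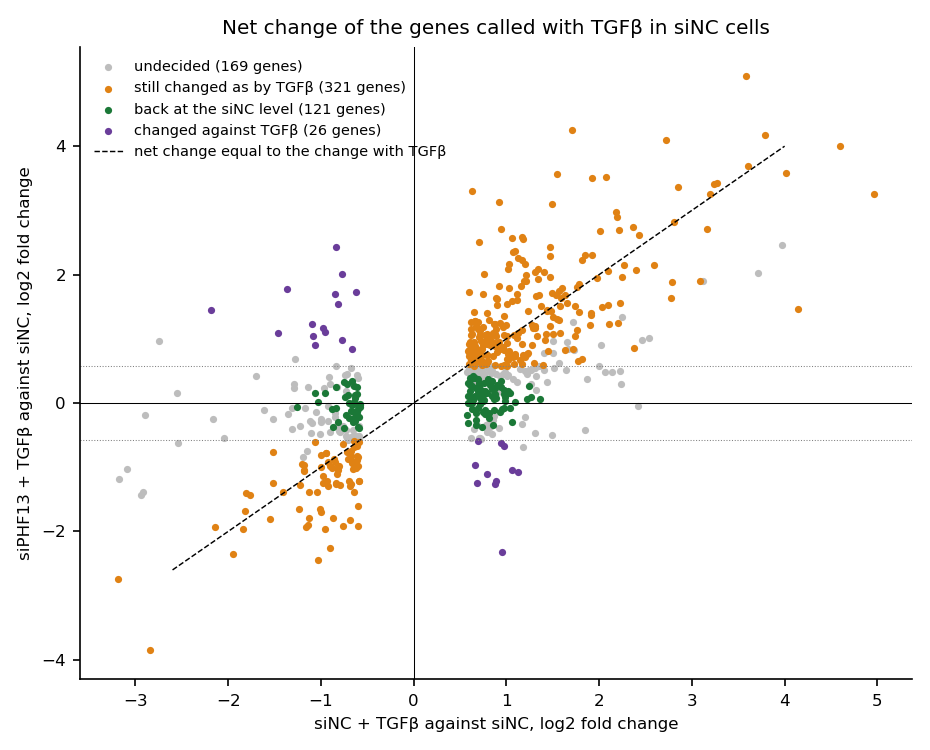
Each point is 1 of the genes called with TGFβ in siNC cells, with its log2 fold change for siNC + TGFβ against siNC on the horizontal axis and for siPHF13 + TGFβ against siNC on the vertical axis. Points on the dashed line have equal changes, dotted lines mark 0.58, and colours mark the class, with 321 genes still changed, 121 back at the siNC level, 26 changed against TGFβ and 169 undecided.

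The genes still raised included signalling ligands and surface proteins. *IGF2* (chromosome 11, 2150342 to 2179621, minus strand), an insulin-like growth factor, stood at 2081 and 1944 normalized counts in siNC, at 16709 and 12642 in siNC + TGFβ and at 24169.6 and 17649 in siPHF13 + TGFβ. Its net change was 3.36 (SE 0.13, adjusted p = 5.76e-10), beside 2.85 with TGFβ alone and 1.11 with depletion alone. The siPHF13 + TGFβ values lay above those of siNC + TGFβ in both libraries, and the difference of 0.51 stayed under the bound of 0.58. *IGF2* overlaps other transcripts of its locus, and the strand setting of the counting is not given in the sources used here. *TTC9B*, a gene of unclear role, rose from 229.5 and 239 to 2187 and 2456 with a net change of 3.30, beside 2.90 with depletion alone and 0.63 with TGFβ alone.

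The genes still lowered included *CDH1* (chromosome 16, 68771195 to 68869440, plus strand), which encodes E-cadherin of epithelial adherens junctions. It had 403 and 459.5 normalized counts in siNC, 106 and 233 after depletion alone, 118 and 121 after TGFβ alone and 78.8 and 154 after both. Every treated library lay below both siNC libraries, and the 3 treated conditions overlapped each other. The net change was -1.96 (SE 0.33, adjusted p = 0.000232), against -1.84 for TGFβ and -1.44 for depletion. *MX1*, an antiviral GTPase, fell by 1.96 from 273 and 285 to 76.6 and 65.4, and the apolipoprotein L gene *APOL3* fell by 1.92 from 581 and 624 to 157 and 159.8. The short-chain dehydrogenase gene *SDR16C5* and the ligand gene *TGFB3* fell by 1.94 and 1.91. *TGFB3* had 474 and 529.8 normalized counts in siNC and 138 and 127 in siPHF13 + TGFβ.

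How depletion alone changed these genes varied. Of the 242 still raised, depletion without TGFβ called 113 higher, 11 lower and 118 in neither direction. Of the 79 still lowered, it called 43 lower, 1 higher and 35 in neither direction. Over all genes depletion alone called 7.95% higher and 10.4% lower. The net change by which these genes were chosen includes the effect of depletion, so their selection favours genes that depletion moved the same way. Within siPHF13 cells the step from no TGFβ to TGFβ was itself called for 83 of the 242 and for 11 of the 79, while over all genes it called 1.13% higher and 0.218% lower (1.35% in all). Against siNC + TGFβ, 40 of the 242 were called higher still and 15 lower, and the latter thus lay above siNC yet below the level with TGFβ alone. Over all genes that comparison called 8.81% higher and 11.7% lower (20.5% in all).

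Of 24 targets and feedback genes of the SMAD pathway, 12 were called higher and 1 lower in the net comparison, beside 9.75% and 11.4% of all genes. The median was 0.60 against 0.0032 over all genes. Fewer of these genes were called higher once libraries were corrected for GC content and length, as given at the end. TGFβ alone had raised 12 of the 24, of which 10 were still raised and 2 were back. *PMEPA1*, an inhibitor of TGFβ signalling that the pathway induces, stood at 3834 and 3745 normalized counts in siNC, at 3251 and 3279.9 in siPHF13, at 18006 and 16900.2 in siNC + TGFβ and at 9164 and 8862 in siPHF13 + TGFβ. Thus *PMEPA1* lay between control and TGFβ levels with no overlap on either side, with a net change of 1.25 (adjusted p = 2.39e-09) and a difference from siNC + TGFβ of -0.95 (adjusted p = 3.96e-08). *SMAD7*, the inhibitory SMAD, rose by 0.61, and was under the bound without siNC replicate 1 (0.56) and once libraries were corrected for GC content and length (0.52).

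Some pathway genes ended at least as high as with TGFβ alone. *CTGF*, a matricellular growth factor, had 6103 and 5707 normalized counts in siNC, 12602 and 11144 after depletion alone, 15112 and 14352 after TGFβ alone and 19353 and 18141 after both. *CTGF*, the latent TGFβ binding protein *LTBP2* and the matrix protein *TGFBI* had net changes of 1.67, 1.71 and 1.59, and their differences from siNC + TGFβ (0.35, 0.21 and 0.54) were not called. Of the ligands, *TGFB1* rose by 1.06 and *TGFB2* by 1.08, whereas *TGFB3*, which is not in this list, fell as given above. The type I receptor gene *TGFBR1* was the list's only gene called lower, at 1587 and 1662 in siNC and 720 and 952 in siPHF13 + TGFβ, a fall of 0.97. *SMAD3*, which carries the signal to DNA, had a net change of -0.18 (95% interval -0.33 to -0.03) and was not called.

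The study lists 90 poised genes activated by TGFβ, chosen on these samples, so that their direction with TGFβ is not independent evidence. In the net comparison 45 were called higher and 3 lower, beside 9.75% and 11.4% of all genes. Their median was 0.80 against 1.20 with TGFβ in siNC cells. Of the 69 called with TGFβ here, 38 were still raised, 7 were back, 3 were called lower and 21 were undecided.

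Genes back at the siNC level held regulators of SMAD signalling, the cytoskeleton and the cell cycle. *SKIL*, which encodes the SMAD corepressor SnoN, stood at 3432 and 3528 normalized counts in siNC, at 7927 and 8615 in siNC + TGFβ and at 4263 and 4103 in siPHF13 + TGFβ, with 2227 and 2301 in siPHF13. Its net change of 0.27 had a 95% interval of 0.12 to 0.41. The siPHF13 + TGFβ libraries lay above siNC, close to it and far below siNC + TGFβ. *FHOD3*, a formin that assembles actin, showed 1190.3 and 1206 in siNC, 3098 and 3067 in siNC + TGFβ and 1372 and 1134 in siPHF13 + TGFβ, a net change of 0.06 (95% interval -0.18 to 0.29). *CDKN1A*, the cyclin-dependent kinase inhibitor p21, went from 9884 and 9137 to 20796 and 18979 with TGFβ and to 8131 and 7401 after both. Its libraries after both treatments were all below siNC, with a net change of -0.29 (95% interval -0.44 to -0.14).

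The kinase gene *RPS6KA2*, the glypican *GPC4* and the vitamin D receptor *VDR* had risen by 1.27, 1.22 and 1.10 with TGFβ in siNC cells. Their net changes were 0.10, 0.06 and 0.01, and the values of siPHF13 + TGFβ overlapped those of siNC. *SOX9*, a transcription factor of ductal progenitors, was back too, with 4696 and 4609 normalized counts in siNC, 9444 and 7979 in siNC + TGFβ and 6145 and 5186 in siPHF13 + TGFβ. Both *SOX9* libraries of siPHF13 + TGFβ lay above those of siNC, with a net change of 0.28 (limma, adjusted p = 0.0192) under the bound. Over the 79 back genes the median was 0.75 with TGFβ alone, -0.34 with depletion alone and 0.10 in the net comparison. Depletion alone called 20 of them lower, beside 10.4% of all genes. The difference from siNC + TGFβ was itself called lower for 56 of the 79, beside 11.7% of all genes. Their selection, a called rise with TGFβ and a net change within the bound, nearly fixes this direction.

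Of the genes lowered by TGFβ, 42 were back. *ITGB4*, the integrin subunit of hemidesmosomes, had 3454 and 3469.8 normalized counts in siNC, 4764 and 5496 after depletion alone, 1715 and 1587 after TGFβ alone and 4168 and 3584 after both. Its net change was 0.16 (95% interval -0.03 to 0.35), and the loss with TGFβ, -1.07 in siNC cells, was -0.40 in siPHF13 cells. The difference between these responses, the interaction, was 0.66 and was called (limma, adjusted p = 0.0326), as it was for 0.308% of all genes, 0.0601% higher and 0.248% lower. *HGF*, a growth factor for epithelial cells, went from 759.7 and 828 to 408 and 409 with TGFβ and to 812 and 962 after both, and *CFB*, complement factor B, from 648 and 817 to 341 and 269 and to 784 and 618. For *CFB* and *HGF* the values after both treatments overlapped those of siNC. The others of the 6 with the largest fall were *C19orf57*, *FAM46B* and *FAM65C*, with net changes of 0.01, -0.10 and -0.37. The difference from siNC + TGFβ was called higher for 21 of the 42, a direction that their selection nearly fixes, beside 8.81% of all genes.

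**Figure D2:**
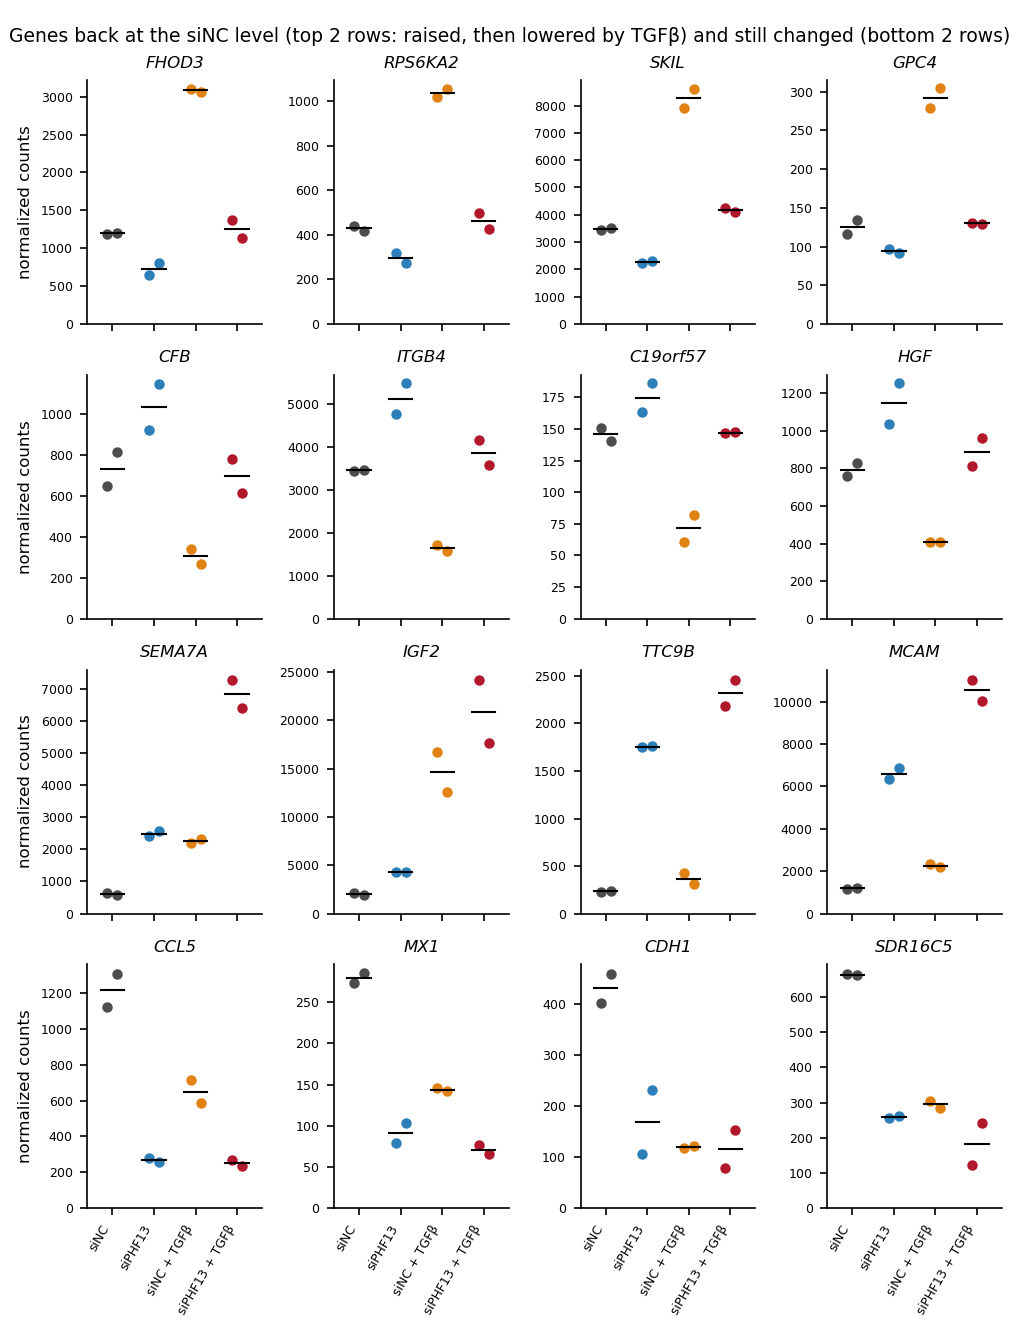
Normalized counts in each library (points) and their mean (bars) in the 4 conditions, with a linear axis from 0 for each gene. The upper 2 rows show genes raised and lowered by TGFβ that were back at the siNC level, where siPHF13 + TGFβ sits beside siNC; the lower 2 rows show genes still raised and still lowered, such as *SEMA7A* and *CDH1*.

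Another 26 genes ended on the other side of siNC, and those given here were chosen after their values were seen. *CD69*, a lectin of activated lymphocytes, stood at 1358 and 1295 normalized counts in siNC, at 2523 and 2609 in siNC + TGFβ and at 261 and 266 in siPHF13 + TGFβ. TGFβ alone thus raised it by 0.95, and the net change was -2.33 (adjusted p = 8.6e-10). *COL4A1*, a chain of basement membrane collagen, rose with TGFβ from 174 and 175 to 329.9 and 402 and ended at 72.3 and 98.2. Its partner chain *COL4A2*, which is transcribed from the same promoter region, ended at 852 and 782 from 433 and 421, still raised by 0.93. The ephrin ligand *EFNA1* and the hexosamine enzyme *GFPT2* likewise rose with TGFβ and ended lower, at -0.97 and -1.11.

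In the other direction, *SCG2*, a secretory granule protein, was lowered by TGFβ from 189 and 207 to 88.4 and 138 and ended at 1005 and 1136, a net change of 2.43. The homeobox gene *NKX6-2*, the thioredoxin-binding *TXNIP* and the claudin *CLDN3* went the same way, with net changes of 1.77, 1.54 and 1.23. Depletion without TGFβ was called in the net direction for 11 of the 11 genes that ended lower and 14 of the 15 that ended higher. Over all genes it called 10.4% lower and 7.95% higher. The selection of these genes, called 1 way with TGFβ and the other way in the net comparison, nearly fixes this direction.

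Genes moved further than by either treatment were those called in 1 direction against siNC, against siPHF13 and against siNC + TGFβ. There were 13 higher and 10 lower, or 0.0977% and 0.0751% of the genes tested. In each of the 23 both siPHF13 + TGFβ libraries lay beyond the 6 others, which the rule nearly fixes, and without the call this held for 957 genes higher and 1126 lower.

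Most of the 13 higher genes were raised by each treatment alone. *SEMA7A* (chromosome 15, 74701630 to 74726299, minus strand), a membrane-anchored semaphorin, stood at 632 and 569 normalized counts in siNC, at 2422 and 2558 in siPHF13, at 2205 and 2334 in siNC + TGFβ and at 7263 and 6391 in siPHF13 + TGFβ. The single treatments gave like levels and both together a mean 11.4 times that of siNC. Its net change of 3.50 (SE 0.08, adjusted p = 4.37e-12) compared with 2.05 for depletion and 1.92 for TGFβ. *MCAM*, a melanoma cell adhesion molecule, went from 1175 and 1217 in siNC to 6348 and 6867 with depletion, 2324 and 2202 with TGFβ and 11031 and 10059 with both. *ITGB3*, the β subunit of the vitronectin receptor, had 779.6 and 867, 2203 and 2358, 1792 and 1809 and 4264 and 3656 in the same order of conditions. For both genes depletion alone gave higher levels than TGFβ alone, and both together gave the highest.

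Secreted and signalling genes were among the others. *SIK1* (chromosome 21, 44834363 to 44847011, minus strand), a salt-inducible kinase, rose from 1018 and 959 normalized counts in siNC to 4398 and 4089 with depletion, 4527 and 4454 with TGFβ and 7863 and 7663 with both. Its net change of 2.97 fell short of the sum of both treatments by 1.31 (interaction, adjusted p = 2.85e-05). *IL11*, a cytokine of the IL-6 family that is a known TGFβ target in fibrosis, had 181 and 180.2 in siNC, 437 and 419 after depletion alone, 452 and 470.1 after TGFβ alone and 791 and 757 after both. Either treatment gave similar *IL11* levels and both together more, with a net change of 2.09 (SE 0.12, adjusted p = 1.07e-08). *KCNK3*, a two-pore potassium channel gene, *CNTD2*, a cyclin-related gene, and *MARCH4*, a ubiquitin ligase gene, had net changes of 3.10, 2.56 and 1.90.

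The 5 others, named after their values were seen, were the BMP antagonist *NOG* (2.08), *MDGA1* (1.94), the metallothionein *MT1A* (2.23), the transporter *SLC16A14* (1.53) and the lens crystallin *CRYAA* (2.63). *MT1A* has near-identical relatives, so its count is uncertain, and *CRYAA* had a mean under 100 normalized counts. For 12 of the 13 both treatments alone were called, and *CRYAA* was called in neither. In 12 the net change was smaller than the sum of both treatments on the log2 scale, and only for *SIK1* was that shortfall called. *SEMA7A*, *MCAM*, *ITGB3*, *SIK1*, *IL11*, *KCNK3* and *MT1A* met the rule with each library left out. *CRYAA* met it only without siNC replicate 2, and *CNTD2* missed it without either siPHF13 library or siPHF13 + TGFβ replicate 1. *NOG* missed it without siPHF13 replicate 2 or siPHF13 + TGFβ replicate 2, after the GC content and length correction, and by edgeR and DESeq2. *MDGA1* missed it without siPHF13 replicate 1 or siPHF13 + TGFβ replicate 1, *SLC16A14* without siPHF13 replicate 1 and *MARCH4* without siPHF13 + TGFβ replicate 1.

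The promoter of *IL11* is shown as a gene that both treatments raised. RefSeq (GRCh38.p14) gives its start region at chr19:55370434-55370713, minus strand, from 250 bases before to 30 after the start, 5′ to 3′ on the strand of the gene. Capitals mark an AP1 site, TGANTCA on either strand, 96 bases before the start.
IL11: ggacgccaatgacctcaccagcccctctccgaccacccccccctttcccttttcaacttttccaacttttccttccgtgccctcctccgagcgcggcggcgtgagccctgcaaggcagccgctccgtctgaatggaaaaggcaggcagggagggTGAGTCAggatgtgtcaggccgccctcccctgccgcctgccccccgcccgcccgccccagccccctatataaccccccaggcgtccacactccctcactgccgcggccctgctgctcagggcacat
This motif was present within 250 bases before to 50 after the start in 4.6% of the 10005 promoters matched to genes of the table, and in 6.76% of those of net higher genes. Of the 13 higher genes moved further than by either treatment, 8 had a promoter entry, and only that of *IL11* held the motif (12.5%). Of AP1 members, *JUN* rose from 6005 and 5678 to 11931 and 11011 normalized counts and *FOSB* from 40.8 and 44.1 to 125 and 100.1. The net changes were 0.97 (limma, adjusted p = 2.15e-07) and 1.38 (limma, adjusted p = 0.00102). Of 15 family members tested 3 were called higher and 3 lower, beside 9.75% and 11.4% of all genes, with a median of -0.04. The AP1 genes *BATF3* and *FOSL1* fell, with net changes of -1.43 to -1.24 and -0.92 to -0.53 when 1 library was left out.

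Of the 10 lower genes, 5 had a response to TGFβ that differed between depleted and control cells. The rule asks for a called fall below siPHF13, which favours a difference in this direction. *AKAP9* (chromosome 7, 91570154 to 91739987, plus strand), a scaffold protein of the centrosome and Golgi, stood at 3542 and 3096 normalized counts in siNC, at 1906 and 2103 in siPHF13, at 4111 and 3917 in siNC + TGFβ and at 974 and 1027 in siPHF13 + TGFβ. With TGFβ alone both *AKAP9* libraries lay above those of siNC, a difference of 0.28 that was not called, and with TGFβ in depleted cells both lay below siPHF13. Its net change was -1.73 (SE 0.08, adjusted p = 2.57e-09), and the response to TGFβ differed between depleted and control cells by -1.28 (interaction, adjusted p = 0.000203). *CENPE* (chromosome 4, 104026506 to 104119602, minus strand), the kinesin that aligns chromosomes, went from 2828 and 2467 in siNC to 648 and 792 after both treatments, with a net change of -1.88 and an interaction of -0.86. The centrosomal *CEP290*, the Golgi tether *GOLGA4* and *ANKRD12* had net changes of -1.39, -1.53 and -1.43, each with a called interaction.

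For *GOLGA4* the levels were 8076 and 7596 in siNC, 4339.7 and 4689.6 after depletion alone, 8875 and 8727 after TGFβ alone and 2651 and 2758 after both, again with the siNC + TGFβ libraries highest. *ADAMTS1*, a secreted protease, *CUX2*, a homeobox gene, and *ABCC2*, an export pump, had net changes of -1.69, -1.87 and -1.40 without a called interaction. *C14orf132* (-1.65) and the thyroid hormone receptor *THRB* (-0.98) complete the 10 and were named after their values were seen. Both single treatments were called for 1 of the 10, depletion only for 5 and neither for 4, and in 9 the net change was larger than the sum of both. For genes that TGFβ alone did not call lower, the rule nearly fixes that last direction. The 5 with a called interaction met the rule with each library left out. *THRB* met it only without siPHF13 + TGFβ replicate 1, and *CUX2* missed it without either siNC library, either siPHF13 library or siPHF13 + TGFβ replicate 2. *ADAMTS1* and *ABCC2* missed it without siPHF13 replicate 1, and *C14orf132* without siPHF13 replicate 2 or siNC + TGFβ replicate 2.

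Transcript length moved with these falls. The 10 genes had a median annotated transcript length of 7767.5 bases, against 3895 over all genes with a length, and 4 of them were among the longest 10% of genes. Their median GC content was 41.1% against 48.4%. Over all genes, the median net change ran from 0.113 in the shortest 10% of genes to -0.141 in the longest 10%, while that of TGFβ in siNC cells ran from -0.0686 to 0.0317. After each library was corrected for GC content and transcript length, 10 lower genes were called, of which 8 were shared, without *C14orf132* and *THRB*. Without siPHF13 + TGFβ replicate 1 there were 25 and without replicate 2 there were 18. The part of length in these falls was not tested beyond this.

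**Figure D3:**
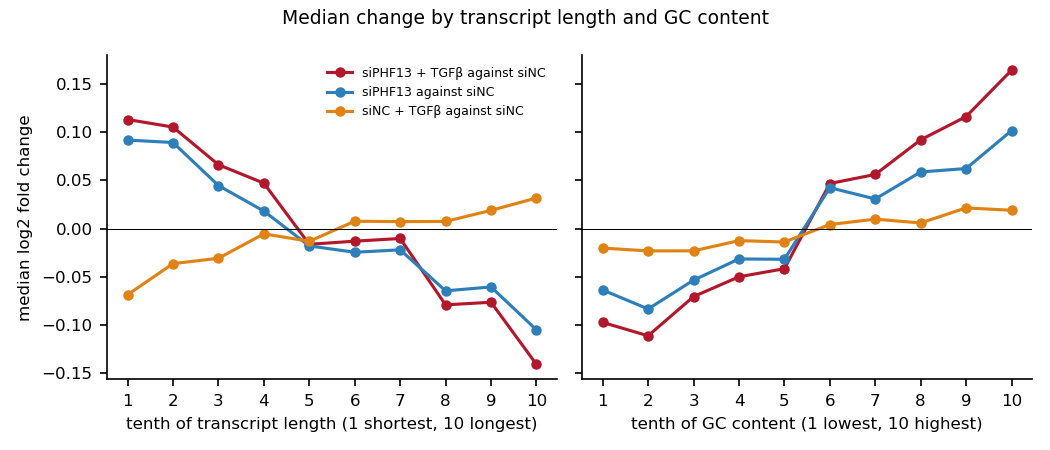
Median log2 fold change of all genes in each 10% of genes ranked by annotated transcript length (left) or by GC content (right), for 3 comparisons with siNC. The net change falls from 0.113 in the shortest to -0.141 in the longest group and rises from -0.0973 to 0.164 with GC content.

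Genes of the interferon response had the lowest median of the lists examined. Type I interferons act through a short promoter element, the interferon-stimulated response element (ISRE), and switch on antiviral genes. Of 33 such genes tested, 22 were called lower, beside 11.4% of all genes. Their median was -1.11 in the net comparison, -1.04 with depletion alone and -0.35 with TGFβ alone. By edgeR and DESeq2 on whole reads 22 were called lower as well. *IFIH1*, the RNA sensor MDA5, had 2689 and 2658 normalized counts in siNC, 601 and 788 after depletion alone, 2009.5 and 2004 after TGFβ alone and 680.1 and 694 after both. Both depleted conditions lay together and below the others, with a net change of -1.96 (SE 0.11, adjusted p = 9.08e-09). *IFIT1*, which binds viral RNA, showed another order, with 1714 and 1825 in siNC, 1054 and 1352 after depletion alone, 819 and 741 after TGFβ alone and 873 and 933 after both. Its net change of -0.97 compared with -1.18 for TGFβ alone. *ISG15*, a ubiquitin-like modifier, had a net change of -0.25 and was not called.

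Promoters of *GBP4*, *MX1* and *IFIH1* are printed because these called genes hold an ISRE near the start. Each runs from 250 bases before to 30 after the RefSeq start (GRCh38.p14), 5′ to 3′ on the strand of the gene, at chr1:89198913-89199192, minus strand for *GBP4*, chr21:41420308-41420587, plus strand for *MX1* and chr2:162318655-162318934, minus strand for *IFIH1*. Capitals mark the ISRE letters searched on either strand, GAAA, any 2 bases and GAAA, and in *IFIH1* the first run of capitals holds 2 overlapping matches.
GBP4: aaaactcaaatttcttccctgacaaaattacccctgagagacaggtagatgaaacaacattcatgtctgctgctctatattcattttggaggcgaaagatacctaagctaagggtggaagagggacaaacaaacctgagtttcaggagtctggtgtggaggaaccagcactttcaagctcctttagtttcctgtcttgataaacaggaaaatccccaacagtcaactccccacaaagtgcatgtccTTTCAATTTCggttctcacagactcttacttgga
MX1: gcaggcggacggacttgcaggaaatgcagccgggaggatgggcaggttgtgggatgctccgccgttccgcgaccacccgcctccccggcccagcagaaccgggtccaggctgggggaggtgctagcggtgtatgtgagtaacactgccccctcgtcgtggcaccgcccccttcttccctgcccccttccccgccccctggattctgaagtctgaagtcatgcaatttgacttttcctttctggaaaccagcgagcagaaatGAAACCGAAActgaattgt
IFIH1: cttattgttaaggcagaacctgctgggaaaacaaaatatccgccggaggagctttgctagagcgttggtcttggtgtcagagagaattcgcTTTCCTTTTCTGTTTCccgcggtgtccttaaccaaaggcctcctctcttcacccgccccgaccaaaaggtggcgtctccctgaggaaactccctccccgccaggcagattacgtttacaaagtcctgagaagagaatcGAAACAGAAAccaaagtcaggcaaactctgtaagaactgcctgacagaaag
The match began 4 bases before the start in *GBP4*, 12 after it in *MX1* and 159, 153 and 21 before it in *IFIH1*. Within 250 bases before to 50 after the start, the motif was in 12 of 17 promoters of the called interferon genes (70.6%), in 4 of 8 of those not called (50%), in 6.14% of all net lower, 1.56% of net higher and 2.87% of all promoters. A match is a description of these letters, not of factor binding.

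MHC class I molecules carry peptides, loaded in the endoplasmic reticulum by the TAP transporter, to the cell surface. Of 15 genes of this pathway 10 were called lower, beside 11.4% of all genes, with a median of -0.72. *HLA-F* went from 474 and 431 normalized counts in siNC to 123 and 115, and *HLA-B* from 7683 and 7796 to 3790.2 and 4224, with net changes of -1.91 and -0.95. The activator *NLRC5* (-1.20), the transporter subunit *TAP1* (-0.76) and the light chain *B2M* (-0.59, and -0.53 with no call after the GC content and length correction) fell as well. HLA genes share sequence, so reads may be divided among them. Depletion alone called 9 of the 15, all lower, beside 10.4% of all genes, and the median with TGFβ alone was -0.10.

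Targets of NRF2, the factor that induces antioxidant enzymes, were mostly lower too. Of 15 tested, 11 were called lower and 1 higher, beside 11.4% and 9.75% of all genes, with a median of -0.78. *SLC7A11*, the cystine importer, had 4789.8 and 4548 normalized counts in siNC, 2003 and 1223 after depletion alone, 5334 and 5513 after TGFβ alone and 1501 and 1362 after both, a net change of -1.71. *PGD*, of the pentose phosphate pathway, fell by 1.11 and *NQO1*, a quinone reductase, by 0.79. The exception was *FTL*, the ferritin light chain, which rose from 70573 and 69662 to 117006 and 111812, by 0.71. After the correction for GC content and length *FTL* was at 0.50 and not called. Depletion without TGFβ called 5 of the 15 lower, beside 10.4% of all genes.

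The epithelial and mesenchymal genes did not move as single blocks. Of 19 junction genes tested, 7 were called lower and 2 higher, beside 11.4% and 9.75% of all genes, with a median of -0.28. Those lower included *CDH1* and the desmosomal genes *DSP* (-1.27) and *PKP2* (-1.54), and 4 of the 7 had a mean of at least 100 normalized counts. *DSP* had 1711 and 1757 normalized counts in siNC and 795 and 651 in siPHF13 + TGFβ. *EPCAM*, an epithelial adhesion molecule, stood at 157 and 158 in siNC and at 225 and 258 in siPHF13 + TGFβ, a net change of 0.61 (adjusted p = 0.0124 by limma) that was not called without either siNC library (adjusted p = 0.0582 and 0.0576) or without siPHF13 + TGFβ replicate 2 (adjusted p = 0.0799). Of 10 keratins, *KRT75*, *KRT81* and *KRT86* were called higher and *KRT18* lower (-0.64, and -0.56 without siPHF13 + TGFβ replicate 1), beside the same shares of all genes.

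Of 19 mesenchymal genes, 4 were called higher and 1 lower, beside 9.75% and 11.4% of all genes. Their median was 0.20 against 0.54 with TGFβ alone. *MMP2*, a gelatinase, had 5366 and 5576 normalized counts in siNC, 21622 and 19682 in siNC + TGFβ and 15443 and 13440.3 in siPHF13 + TGFβ, and *MMP9* had 114 and 122, 282 and 274 and 204 and 202. Both proteases stayed above siNC, by 1.40 and 0.78, and *MMP14* by 1.04. *SNAI1*, a repressor of *CDH1*, stood at 502 and 565 in siNC, at 155 and 181 in siPHF13, at 1768 and 1267 in siNC + TGFβ and at 402 and 351 in siPHF13 + TGFβ. After both treatments its values were below siNC, and the net change of -0.50 (95% interval -0.84 to -0.17) did not reach the bound. It was called without siNC replicate 1 (-0.59), without siPHF13 + TGFβ replicate 1 (-0.60) and after the correction for GC content and length (-0.68). *SNAI2* was near the floor of the table, at 11.4 and 10.8 in siNC and 55.1 and 19.2 in siPHF13 + TGFβ, and its net change of 1.48 (adjusted p = 0.0397 by limma) was not called without siPHF13 + TGFβ replicate 1 (adjusted p = 0.38) or without either siNC library (0.109 and 0.126). *CDH2*, the N-cadherin gene, was at 2252 and 2074 in siNC and 1789 and 1731 in siPHF13 + TGFβ (-0.30), and *VIM* and *ZEB1* had net changes of 0.21 and -0.18, none of them called. *PCDHB8* and *PAPLN*, which the study also names, were not called either (0.21 and -0.40).

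Matrix genes changed in both directions. Of 27 collagen and matrix genes 9 were called higher and 6 lower, beside 9.75% and 11.4% of all genes, with a median of 0.32. *COL5A1*, a fibril-forming collagen, had 259 and 222 normalized counts in siNC, 646 and 694 after depletion alone, 1101 and 1134 after TGFβ alone and 1698 and 1414 after both. *COL1A1*, a chain of type I collagen, had 3345 and 3433, 1922 and 1887, 16414 and 15334 and 4909 and 4691 in this order. *COL5A1* was highest after both treatments, with a net change of 2.69, whereas *COL1A1* came most of the way back, to 0.50 (95% interval 0.37 to 0.64), and was neither still raised nor back. The proteoglycan *BGN* rose from 0.948 and 12.6 to 188 and 164, a change of 5.10 that rests on 1 read in siNC replicate 1 and was 3.69 without siNC replicate 1 and 6.50 without siNC replicate 2. *COL16A1* and the laminin *LAMA5* fell by 1.69 and 0.95.

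Of 14 genes of collagen crosslinking and folding, 5 were called higher and 1 lower, beside 9.75% and 11.4% of all genes, with a median of 0.37. *TGM2*, a transglutaminase, went from 4006 and 3677 normalized counts in siNC to 16788 and 19776 with depletion, 7325 and 7383 with TGFβ and 26044 and 24323 with both, a net change of 2.71. *LOX*, lysyl oxidase, rose by 1.80, with 1.71 from depletion alone. Of 15 integrins 4 were higher and 1, *ITGB8* (-0.80), was lower, beside 9.75% and 11.4% of all genes. *ITGA5*, a fibronectin receptor subunit, had 35066 and 34918 in siNC, 100454 and 99104 in siNC + TGFβ and 53078 and 49443 in siPHF13 + TGFβ. It ended between the other conditions at 0.55, just under the bound, and at 0.60 without siPHF13 + TGFβ replicate 2. Of 21 contractile genes, *TPM4* (1.59) and *CNN1* (3.04) were called higher and 1 was lower, beside 9.75% and 11.4% of all genes. The median of that list was 0.06, with 12 net changes above 0 and 9 below.

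Among other groups, YAP and TEAD targets had 4 of 18 called higher, including *ANKRD1* (2.17) and *LATS2* (1.44), and 0 lower, beside 9.75% and 11.4% of all genes. The median of that list was 0.04, with 10 net changes above 0 and 8 below. Axon guidance genes, which include the semaphorins, had 12 of 34 lower and 5 higher, beside 11.4% and 9.75% of all genes, with a median of -0.37. The plexin *PLXNA2* fell by 1.87 and the coreceptor *NRP2* rose from 555 and 629.8 to 1743 and 1444 normalized counts. Of 20 Notch pathway genes 4 were higher and 3 lower, beside 9.75% and 11.4% of all genes, with a median of -0.01. *NOTCH3* and *NOTCH4* were at 0.91 and 1.35 and *DLL1* and *DTX4* at -2.45 and -3.51. *HES1*, a Notch target, was not called (-0.11).

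Of 21 cholesterol synthesis genes 5 were lower and 1 higher, beside 11.4% and 9.75% of all genes, with a median of -0.23. *SQLE*, squalene epoxidase, was at 7424 and 7641 normalized counts in siNC, 10151 and 9433 in siNC + TGFβ and 3167 and 3249 in siPHF13 + TGFβ, a net change of -1.23. Of 24 genes of ERK output 6 were lower, among them *CCND1* (cyclin D1, -0.82), *ETV4* (-0.94) and *TGFA* (-1.94), and 4 were higher, beside 11.4% and 9.75% of all genes. That count of 4 was 2 without siNC replicate 1 or without siPHF13 + TGFβ replicate 2. Glycolysis and hypoxia genes had 2 of 24 called in each direction, and genes of the unfolded protein response 3 of 20 higher and 2 lower, beside the 9.75% and 11.4% of all genes. After the GC content and length correction the unfolded protein response had 1 in each direction, and against siNC replicate 2 alone the glycolysis genes had 3 higher.

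Of 52 genes of G2 and mitosis, 8 were called lower, and of 41 S phase genes 3, where 11.4% of all genes were. The G2 and mitosis genes had a median of -0.28 against -0.44 with TGFβ alone and -0.16 with depletion alone. *ANLN*, the cytokinesis scaffold anillin, had 25902 and 25800.4 normalized counts in siNC, 13198 and 13508 after depletion alone, 17940.4 and 18369 after TGFβ alone and 11051 and 10993 after both. *ANLN* and the kinetochore gene *CENPF* fell by 1.23 and 1.27, and their values after both treatments lay below those of all other conditions. The S phase genes called lower included *RRM2* (-0.73), and the median of that list was -0.04. The proliferation marker *MKI67* was at 29131 and 29423 in siNC and 23987 and 18309 in siPHF13 + TGFβ (-0.48, not called, and -0.68 and called without siPHF13 + TGFβ replicate 1).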

How the data were processed

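mRNA-seq libraries of Panc-1 cells in 4 conditions, 2 each, were grouped by their labels. Per the study's methods the authors trimmed paired-end reads (Trim Galore 0.4.1), mapped them with STAR 2.7.0 (hg19), counted reads on exons with HTSeq 0.12.4 and normalized with DESeq2. The annotation release, the strand setting and that DESeq2 version are not given in the sources used here. The deposited values are a signal, gene counts divided by a size factor of each library. The deposited tables of the authors' own comparisons (log2 fold changes, standard errors, p-values) were not used.

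Each library's values were whole multiples of 1 step for 100% of genes (within 1e-06), which gave its reads: for siNC 44216562 and 46700806, for siPHF13 41921473 and 42398952, for siNC + TGFβ 40193201 and 42024161, for siPHF13 + TGFβ 39196214 and 43439963. All comparisons came from 1 limma fit (3.58.1, R 4.3.3) with trended variance on log2(value + 1) over 8 libraries, with Benjamini-Hochberg adjustment over 13307 genes. A minimum of 10 in 2 libraries removed no gene. Low genes' fold changes are understated by the pseudocount. Replicates varied by more than counting noise, so no counting intervals are given. On simulated data, 48 of 50 net changes, 49 of 50 still changed, 46 of 50 back and 47 of 50 moved further were found. Of 13107 unchanged genes 2 were called. These rates hold only for the sizes of change simulated, and they were not broken down by size. In the real data *NOG*, among the genes moved further, differed from its nearest condition by only 0.59. Genes back at the siNC level had median changes with TGFβ alone of 0.75 (raised) and -0.65 (lowered). How reliably such smaller changes are found was not shown.

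Named genes had a mean of at least 100: the 12 largest net rises and falls without overlap of groups, the 6 largest each way among genes still changed and back, and 8 each way of those moved further, by their smallest difference from the other conditions. Beside them stand genes the study names and list members. Members and lists were chosen with earlier results of these data known, and other exceptions are said. Some genes of the rule and lists are not reported here. Cell cycle genes came from Seurat 5.3.0. Lengths, GC content and gene coordinates (GRCh37) were matched for 12317 genes (92.6%).

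Alternatives were a pseudocount of 5, no minimum and a minimum mean of 100, TMM factors (edgeR 4.0.16), only the 4 libraries compared, a replicate block, no fold bound, interval bounds of 0.4 and 1, a correction for GC content and length by splines with 5 degrees of freedom, split siNC controls, DESeq2 1.42.0 and the quasi-likelihood test of edgeR, each on whole reads, and each library left out. The count models over all 8 libraries for genes still changed or moved further, and the uncorrected fit of genes with a length, were added after seeing the data.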

Additional observations from a re-analysis of the deposited data

Results flagged for a closer look

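For 16 of the genes named above the response to TGFβ differed between siPHF13 and siNC cells by a test of that difference (limma interaction, adjusted p under 0.05 and past the bound of 0.58). Over all genes 41 passed (0.308%), 8 with a higher and 33 with a lower response in siPHF13 cells. The size below is the log2 response to TGFβ in depleted cells less the one in siNC cells.

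Among genes raised by TGFβ, the response was smaller by this measure for the kinase *SIK1* (-1.31, adjusted p = 2.85e-05), the collagens *COL5A1* (-1.01, adjusted p = 0.0161) and *COL1A1* (-0.89, adjusted p = 0.000358), the protease *MMP2* (-0.92, adjusted p = 0.00298), the feedback gene *PMEPA1* (-0.74, adjusted p = 0.00118) and the integrin *ITGA5* (-0.73, adjusted p = 0.0015). It was also smaller for *CD69* (-0.71, adjusted p = 0.046), *LTBP2* (-0.68, adjusted p = 0.00985), *CTGF* (-0.66, adjusted p = 0.00909) and *TGFBI* (-0.61, adjusted p = 0.00909).

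The difference was also below 0 for *AKAP9* (-1.28, adjusted p = 0.000203), *CEP290* (-1.10, adjusted p = 0.000819), *ANKRD12* (-0.94, adjusted p = 0.00137), *GOLGA4* (-0.91, adjusted p = 0.000358) and *CENPE* (-0.86, adjusted p = 0.0175). For these 5 genes the response to TGFβ lay between -1.19 (*CENPE*) and -0.74 (*GOLGA4*) in siPHF13 cells, each called, and between -0.32 (*CENPE*) and 0.29 (*CEP290*) in siNC cells, none called. They come from the genes moved further, whose rule requires the called fall in siPHF13 cells and so favours a difference below 0. For *ITGB4*, which TGFβ lowered in siNC cells, the difference was 0.66 (adjusted p = 0.0326).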

How the results depend on the processing

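The counts of net higher and lower genes stayed within 1.5 times of 1298 and 1514 under every alternative but the one with no fold bound, which gave 3342 and 3447. With no bound, genes still changed were 675 raised and 433 lowered, back 312 and 279, on the other side 187 and 128, and moved further 56 and 54. The genes back at the siNC level depended on the interval: 34 raised and 13 lowered at 0.4, 155 and 90 at 1. With split siNC controls, still lowered were 47 and 48 and, in the first split, back lowered 26.

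With 1 library left out, net higher genes ranged from 1187 to 1307 and net lower from 1337 to 1533, still raised from 178 to 249, still lowered from 45 (without siNC replicate 2) to 87, back raised from 59 to 96, back lowered from 28 (without siPHF13 + TGFβ replicate 2) to 65 (without siNC + TGFβ replicate 2), ended lower against TGFβ from 8 to 17 (without siPHF13 + TGFβ replicate 1), ended higher from 6 (without siNC replicate 2) to 16, further higher from 10 to 19 and further lower from 8 to 25.

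The replicate block gave 1290 net higher and 1504 lower genes. Samples with 1 number share only that number: neither the labels nor all pairs tie them, since the correlations of replicate differences with siPHF13 + TGFβ were 0.055 for siNC, -0.25 for siPHF13 and 0.27 for siNC + TGFβ, and among the others 0.072, 0.011 and -0.15. With the block *THRB* and *CRYAA* no longer counted as moved further. With the block, in the fit of only the 4 libraries and by DESeq2, the matrix gene *FN1* (-0.70, limma adjusted p = 0.055 and not called in the main fit) was called. It was also called without either siPHF13 library (-0.70) and without siPHF13 + TGFβ replicate 2 (-0.88). After the GC content and length correction 8 of 22 TGFβ targets were called higher, against 11 of 22 uncorrected. *VDR* was then at -0.012. Net changes of genes back at the siNC level changed sign with 1 library left out, over ranges of -0.036 to 0.065 for *C19orf57*, -0.24 to 0.11 for *CFB*, -0.20 to 0.010 for *FAM46B*, -0.079 to 0.20 for *FHOD3*, -0.048 to 0.16 for *GPC4*, -0.0086 to 0.21 for *RPS6KA2* and -0.17 to 0.20 for *VDR*. edgeR and DESeq2 gave no interval, so genes back at the siNC level were not counted with them.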
